A study of Mus musculus with 12 samples.

Results

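Genes that carry fatty acids into muscle and burn them in its mitochondria were followed across 2 mouse muscles, with and without the enzyme hexose-6-phosphate dehydrogenase (H6pd). The set holds 34 genes, named by symbol for their roles, a choice made with earlier results of these data known. A gene was read from the brightest probe set that the array's probe table gives to that symbol alone, ranked by its mean over the 12 arrays. In this way 32 of the 34 could be measured, out of 13009 genes tested in all. Acsl1, a long-chain acyl-CoA synthetase, had no probe set under its symbol, and Cpt1b, the muscle form of the outer carnitine palmitoyltransferase, was found only on a probe set that also names other genes, so neither has a value here.

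The samples were total RNA from whole soleus and whole tibialis anterior (TA) of mice aged 4 weeks, labelled knockout (KO) or wild type (WT), on single-colour Affymetrix arrays. Each genotype was sampled in each muscle on 3 arrays, called biological replicates by the labels, which makes 4 groups: WT soleus, WT TA, KO soleus and KO TA. At this age the animals were past weaning and, per the design text, had no open sign of myopathy in histology, and the muscles were taken for their unlike fibre types and metabolism. Strain, sex, the deleted stretch of H6pd and whether a soleus and a TA of equal number came from 1 mouse are not given in the sources used here. Values are log2 signal after quantile normalization, so a difference of 1 is a doubling, and the 3 arrays of a group limit the precision of each of them.

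Fatty acids are freed from circulating lipoproteins at the vessel wall, cross the muscle membrane with the help of a scavenger receptor and transport proteins, and are ferried in the cytosol by a binding protein. Inside the fibre they are joined to coenzyme A, passed into mitochondria as carnitine esters, and shortened in a repeated cycle of dehydrogenation, hydration, a further dehydrogenation and thiolysis, with electrons handed on through a flavoprotein pair to the respiratory chain. Slow, oxidative fibres, of which soleus holds more than TA beside fast ones, run this pathway more than the fast fibres of TA. The nuclear receptors of the PPAR family, which respond to fatty acids, control many of the pathway's genes.

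Each muscle carried the fibre genes of its label. Of 13 slow fibre genes, 12 passed the limma test as higher in WT soleus than in WT TA, beside 4.44% of all genes, with a median difference of 6.42. Myh7, the slow myosin heavy chain, lay between 15.42 and 15.50 in WT soleus and between 2.67 and 8.25 in WT TA, while Myh4, the fastest myosin heavy chain, lay between 10.22 and 13.19 in WT soleus and at 15.91 on each WT TA array. H6pd itself read 5.57, 6.12 and 7.11 in WT soleus, 4.19, 4.41 and 6.10 in KO soleus, 6.37, 6.26 and 7.92 in WT TA and 6.89, 6.49 and 7.49 in KO TA. The KO arrays were not separate from the WT arrays in either muscle (limma, adjusted p = 0.577 in soleus and 0.966 in TA). Where this probe set lies relative to the deletion is not given, so it checks the genotype labels in neither direction, and KO and WT below are the groups so labelled. On the component of the arrays' variation that ranked behind muscle, with 18.6% of the variance, the 4 arrays numbered 3 lay from -33.9 to -23.8 and the others from 5.8 to 21.9.

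In WT mice the fatty acid genes stood higher in soleus. Of the 32, 28 had a higher mean in WT soleus than in WT TA, beside 44.9% of all genes (30 with median centring, which turned Crat and Acads), and the median difference was 0.76, against -0.02 over all genes. With limma and Benjamini-Hochberg adjustment over all genes at a threshold of 0.05, 18 passed as higher, beside 4.44% of all genes, and 1, Ppard, as lower, beside 6.26%; in either direction 10.7% of all genes passed. All 3 genes of electron transfer, all 3 enzymes of unsaturated fatty acids and all 4 uptake genes were among the 18, whereas neither triglyceride lipase, neither peroxisomal enzyme, and neither of Ucp3 and Acot2 was. Without WT TA replicate 1 the count of 19 was 12.

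The widest of these gaps were in uptake. Cd36, the membrane fatty acid translocase, read 13.14, 13.15 and 12.78 in WT soleus and 11.56, 11.41 and 11.33 in WT TA, a difference of 1.59 (SE 0.17, 3.01-fold, limma adjusted p = 0.000513). Fabp3, the heart and muscle fatty acid binding protein, read 14.75, 14.95 and 14.80 in WT soleus and 13.16, 13.19 and 13.69 in WT TA, a difference of 1.49 (SE 0.22, limma adjusted p = 0.00272). Lpl, the lipoprotein lipase, read 14.98, 15.08 and 15.07 in WT soleus and 13.34, 13.48 and 13.90 in WT TA, a difference of 1.47 (SE 0.14, limma adjusted p = 0.000307). In all 3 genes every WT soleus array was above every WT TA array, by more than a doubling at the group means.

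The mitochondrial enzymes followed with somewhat smaller gaps. Etfa, a subunit of the flavoprotein that takes electrons from the acyl-CoA dehydrogenases, read 13.72, 13.80 and 13.62 in WT soleus and 12.65, 12.36 and 12.76 in WT TA (2.18-fold, limma adjusted p = 0.00218). Hadha, the alpha subunit of the mitochondrial trifunctional protein, read 12.07, 12.60 and 12.73 in WT soleus and 11.32, 11.05 and 11.48 in WT TA (2.27-fold, SE 0.20 on the log2 scale, limma adjusted p = 0.00624). Acaa2, the mitochondrial thiolase, read 12.08, 12.46 and 12.67 in WT soleus and 11.26, 11.30 and 11.46 in WT TA (2.08-fold, limma adjusted p = 0.00247). The muscles did not overlap in these 3 genes either, and WT soleus replicate 1 was the lowest WT soleus array for Hadha and Acaa2.

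**Figure D1:**
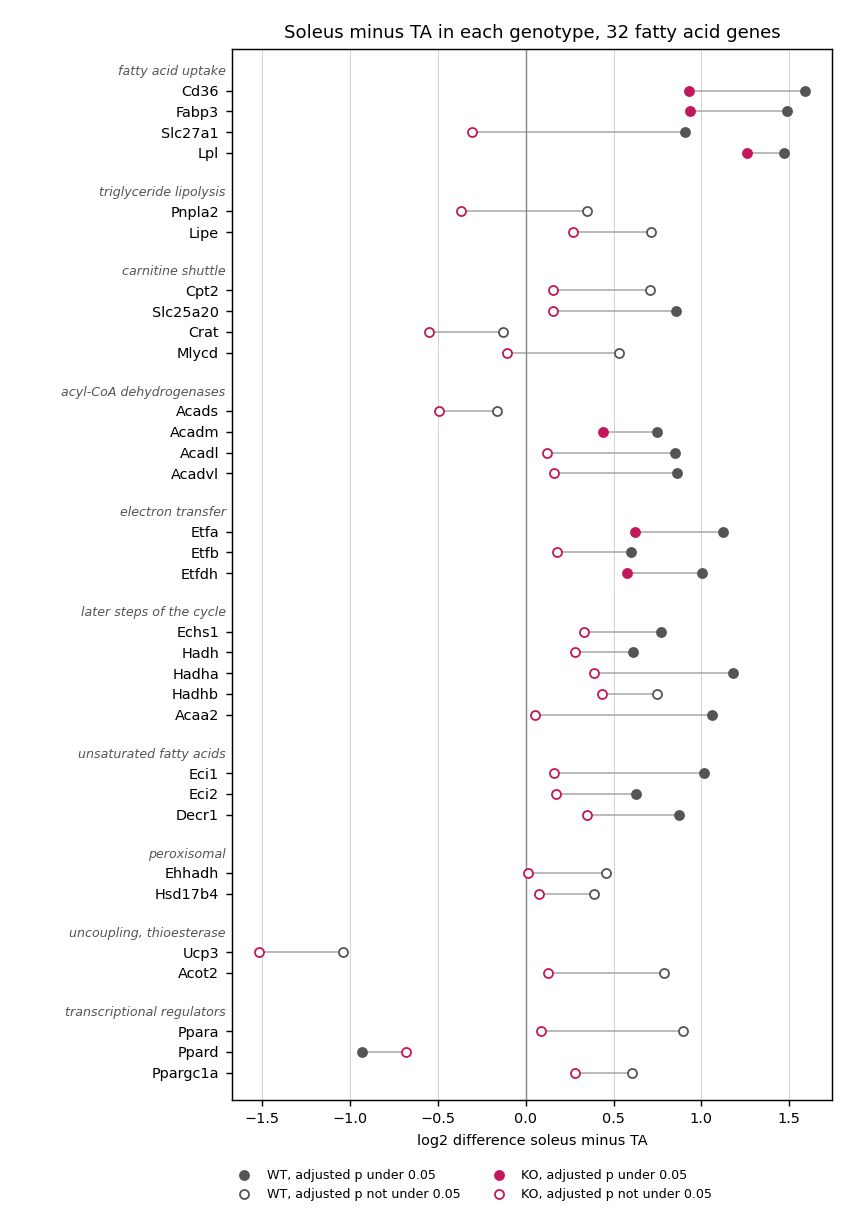
Log2 difference soleus minus TA of the 32 measured fatty acid genes in WT (grey) and KO (pink), ordered by role, with filled points for limma adjusted p under 0.05. The grey points lie to the right of 0 for 28 genes, and for 28 of the 32 the pink point lies closer to 0 than the grey one.

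In the KO the gap between the muscles was narrower. The median difference over the 32 genes was 0.16 between KO soleus and KO TA, against -0.02 over all genes, and 25 genes had the higher mean in KO soleus, beside 42.9%. Lpl (1.26), Fabp3 (0.94), Cd36 (0.93), Etfa (0.62), Etfdh (0.58) and Acadm (0.44) passed the limma test as higher in KO soleus, with adjusted p from 0.00076 to 0.0479, and 0 passed as lower, where 4.34% and 4.61% of all genes did (8.96% in either direction). At an unadjusted p under 0.05, 8 were higher and 3 lower, beside 10.9% and 13% of all genes. The distance between the muscle means was smaller in KO than in WT for 28 of the 32 genes, beside 54% of all genes. It rests on the same 4 group means as the difference between the KO effects in the 2 muscles, tested below, and is no separate evidence. The count of 6 fell to 2 without KO soleus replicate 1, KO soleus replicate 2, KO TA replicate 1 or KO TA replicate 3, Lpl and Cd36 being those that passed each time. The median of 0.16 also leaned on single arrays: without KO TA replicate 1 it was 0.02, with 18 of 32 genes higher in KO soleus, and without KO soleus replicate 3 it was 0.0995, while it was 0.29 without KO soleus replicate 1 and 0.25 without KO TA replicate 2.

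In TA most of the set lay higher in KO than in WT, and 2 enzymes of the later steps of the cycle rose. Of the 32 genes, 21 had a higher mean in KO TA, beside 48.6% of all genes, and the median difference was 0.32, against -0.005 over all genes. Acaa2 and Hadh passed the limma test as higher and 0 genes as lower, beside 1.42% and 1.41% of all genes (2.83% in either direction). At an unadjusted p under 0.05, 9 were higher and 1 was lower, beside 7.95% and 9.14% of all genes. In 7 genes all KO TA arrays were above all WT TA arrays, namely Slc27a1, Slc25a20, Hadh, Hadha, Acaa2, Eci1 and Eci2, beside 10.7% of all genes. In 3 genes, Acads, Ppara and Ppard, all KO TA arrays were below all WT TA arrays, beside 12.5% of all genes. The labels call the replicates biological and say no more of how they were obtained, and the p-values measure the spread between these arrays. In whole muscle, fewer cells of a type and less RNA per cell cannot be told apart.

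Acaa2 cuts an acetyl unit from the shortened acyl chain and so ends each turn of the cycle. It read 11.26, 11.30 and 11.46 in WT TA and 11.97, 12.18 and 12.35 in KO TA. The lowest KO TA array was above the highest WT TA array, and the KO TA values lay in the range of KO soleus, 12.12 to 12.36, apart from replicate 1. The difference was 0.82 (SE 0.15, 1.77-fold, limma adjusted p = 0.0227). The other kept probe sets of Acaa2 differed by 0.86 each, with adjusted p over all probe sets of 0.0187 and 0.282, beside 0.0332 for the brightest. The adjusted p of Acaa2 was 0.0815 without KO TA replicate 2, 0.0877 without KO TA replicate 3, 0.0737 without WT TA replicate 1 and 0.0690 without WT TA replicate 2, with differences between 0.73 and 0.82, so the call needed these 4 arrays.

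Hadh, the dehydrogenase that oxidises medium and short hydroxyacyl-CoA in the step before thiolysis, read 13.76, 13.92 and 13.98 in WT TA and 14.17, 14.46 and 14.34 in KO TA. All KO TA arrays were again above all WT TA arrays, and below all WT soleus arrays, which read 14.49, 14.48 and 14.54. The difference was 0.43 (SE 0.10, 1.35-fold, limma adjusted p = 0.0488). Its brightest probe set belongs to a class whose probes may also bind related transcripts, and the other kept probe sets differed by 0.59 and 0.38. Leaving out KO TA replicate 2 or 3 or any 1 of the WT TA arrays moved its adjusted p to between 0.0650 and 0.150, with differences from 0.37 to 0.48. The adjusted p was also above 0.05 with no filter (0.0620), an offset of 32 (0.0507), the mean of probe sets (0.0610), only the arrays compared (0.150) and without the arrays numbered 3 (0.180).

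Hadh is shown with the 250 bases before its start because it was 1 of the 2 genes that rose, and Hadhb, chosen after its values were seen, because it starts 272 bases from Hadha on the opposite strand, so that the genes of both trifunctional protein subunits share this stretch. The sequences are from RefSeq on GRCm38.p6, chr3:131272102-131272351 on the minus strand for Hadh and chr5:30155003-30155252 on the plus strand for Hadhb. Capitals mark matches on either strand to GGGCGG (a GC box, read CCGCCC on the other strand) and CCAAT.
Hadh: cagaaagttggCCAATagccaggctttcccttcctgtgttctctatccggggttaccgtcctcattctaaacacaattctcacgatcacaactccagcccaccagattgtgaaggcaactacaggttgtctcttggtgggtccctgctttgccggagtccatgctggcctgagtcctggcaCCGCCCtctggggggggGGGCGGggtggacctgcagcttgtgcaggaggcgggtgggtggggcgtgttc
Hadhb: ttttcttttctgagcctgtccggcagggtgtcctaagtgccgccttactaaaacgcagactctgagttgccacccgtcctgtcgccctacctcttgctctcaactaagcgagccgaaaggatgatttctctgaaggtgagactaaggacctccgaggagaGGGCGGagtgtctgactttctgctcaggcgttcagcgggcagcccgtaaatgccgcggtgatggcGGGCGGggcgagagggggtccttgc
The Hadh window held 2 GC boxes and 1 CCAAT with 59.6% G and C, and the Hadhb window 2 GC boxes and no CCAAT with 58.8%. A window was given for 27 of the 32 measured genes. GGGCGG was found in 17 of them (63%), against 35.4% of 27025 genes with a window of the same length, CCAAT in 11 (40.7%, against 37.5%) and TATAAA in 0 (against 14.3%). The hexamer AGGTCA that PPAR and related receptors read was found in 5, namely Acadm, Acadvl, Cd36, Echs1 and Ucp3 (18.5%, against 15.8%). Its direct repeat with 1 base between, AGGTCANAGGTCA, was found in 0 (against 0.0407%), and TCAAGGTCA, the element of the oestrogen-related receptors, which contains the hexamer, in 0 (against 0.422%). The 27025 genes were not limited to the 13009 tested here, so these shares are no background of genes measured in muscle. All are matches of letters in a short window on both strands and name no binding site.

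Of uptake and entry into mitochondria in TA, the largest differences were in a transporter and a carrier. Slc27a1, a fatty acid transport protein of the plasma membrane, read 6.31, 6.05 and 6.58 in WT TA and 7.20, 7.38 and 6.88 in KO TA, with no overlap. The difference was 0.84 (SE 0.22), which did not pass (limma adjusted p = 0.0747), and its other probe set differed by 0.21. Slc25a20, which exchanges acylcarnitine for carnitine across the inner mitochondrial membrane, read 10.36, 10.85 and 10.82 in WT TA and 11.19, 11.61 and 11.21 in KO TA, again with no overlap. The difference was 0.66 (SE 0.18, limma adjusted p = 0.0852), and 0.74 in its other probe set.

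Cd36 read 11.39, 12.10 and 11.93 in KO TA, where replicate 1 lay within the WT TA range, and Fabp3 read 13.34, 14.10 and 13.24, with all but replicate 2 inside the WT TA range. The differences were 0.37 for Cd36 and 0.21 for Fabp3. Lpl read 13.29, 13.71 and 13.57, overlapping WT TA, with a difference of -0.05 that turned positive under median centring. These 3 uptake genes, which had the widest gaps between the muscles in WT, did not pass in TA (limma adjusted p from 0.314 to 0.917).

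The acyl-CoA dehydrogenases and Hadha lay on both sides of 0 in TA. Acadl, the long-chain acyl-CoA dehydrogenase, read 12.77, 13.16 and 13.11 in WT TA and 13.12, 13.79 and 13.68 in KO TA, where replicate 1 fell inside the WT range, and the difference was 0.52 (limma adjusted p = 0.154). Hadha read 11.58, 11.91 and 11.97 in KO TA, all above WT TA, a difference of 0.54 (0.211). Acads, the short-chain dehydrogenase, read 9.20, 9.35 and 9.49 in WT TA and 9.03, 8.70 and 9.16 in KO TA, all below, a difference of -0.38 (0.410), and Acadm, the medium-chain one, differed by -0.13 (0.642). None of these 4 passed.

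Eci1, an isomerase that moves the double bond of unsaturated fatty acids to where the cycle can use it, read 10.44, 10.68 and 10.63 in WT TA and 11.01, 11.46 and 11.42 in KO TA. All KO arrays were higher, by 0.71 at the means (SE 0.18, limma adjusted p = 0.0725). Eci2, a related isomerase, differed by 0.53 (0.120) and Decr1, the dienoyl-CoA reductase, by 0.16 (0.757). The electron transfer genes lay level between the genotypes in TA, with differences of -0.01 for Etfa, 0.03 for Etfb and -0.09 for Etfdh, the sign of Etfa turning under median centring.

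**Figure D2:**
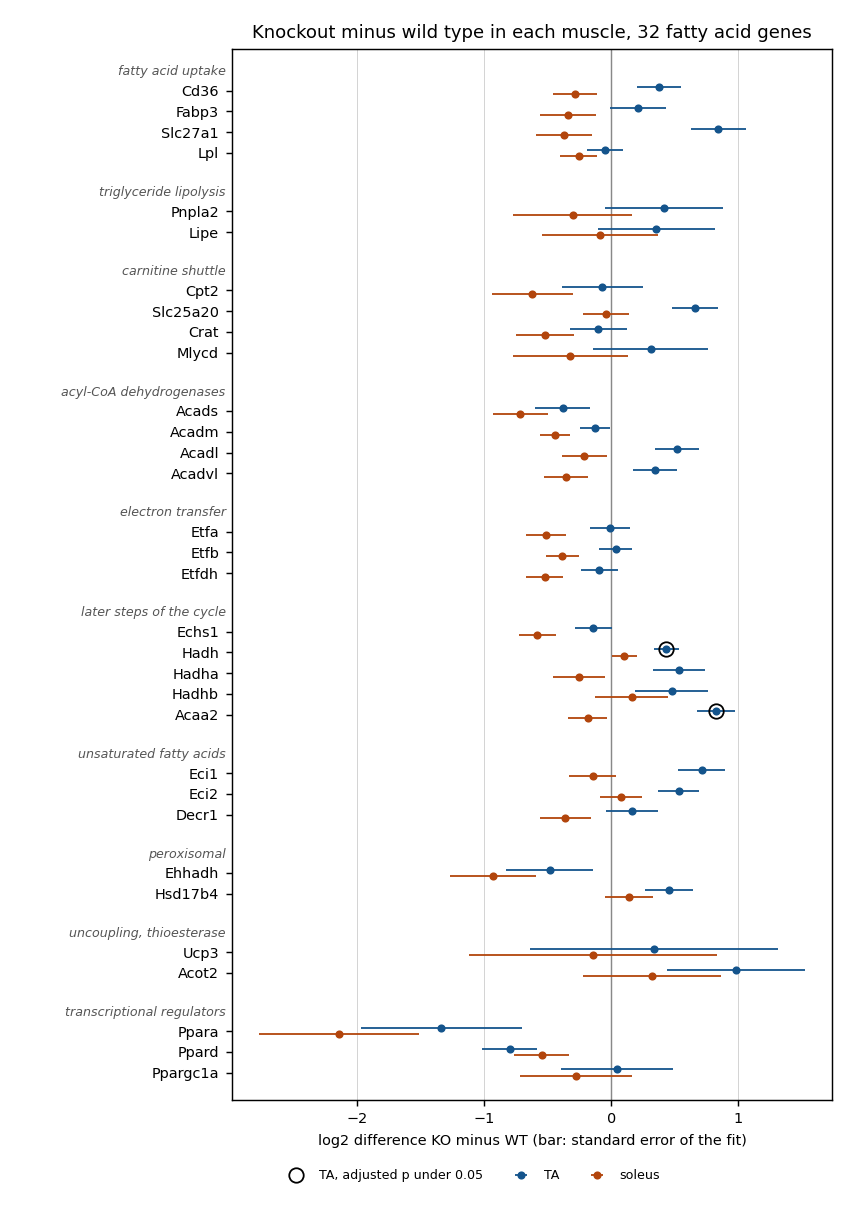
Log2 difference KO minus WT of the 32 genes in TA (blue) and soleus (orange), with standard errors of the limma fit as bars and rings where the adjusted p was under 0.05. Rings mark Acaa2 and Hadh in TA, and the blue point lies to the right of the orange one for every gene but Ppard.

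With the replicate number as a block, 8 of the 32 genes passed in TA rather than 2, where 7% of all genes passed. Slc25a20 (0.66, limma adjusted p = 0.0312), Acadl (0.52, 0.0179), Acadvl, the very-long-chain dehydrogenase (0.35, 0.045), Hadh (0.43, 0.0178), Acaa2 (0.82, 0.00582), Eci1 (0.71, 0.00579) and Eci2 (0.53, 0.0178) were higher and Ppard (-0.80, 0.0424) lower. In KO soleus against KO TA the block gave 10 calls rather than 6, adding Hadh (0.28, 0.0392) as higher and Crat (-0.55, 0.0362), Ucp3 (-1.52, 0.0399) and Ppard (-0.68, 0.0417) as lower, where 16.9% of all genes passed. In WT soleus against WT TA it gave 22 (18.2% of all genes), and in soleus and in the difference of effects 0 (0.0307% of all genes in each). Fitted on the TA arrays alone, without the soleus arrays to share the spread, 0 of the 32 passed, where 0.0307% of all genes did.

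In soleus the set lay lower in KO, without any gene past the test. Of the 32, 27 had a lower mean in KO soleus than in WT soleus, beside 48.9% of all genes, and the median difference was -0.31, against 0.002 over all genes. Without WT soleus replicate 1 the median was -0.48, and without WT soleus replicate 3 it was -0.25, with 22 genes lower. Limma passed 0 of them, beside 0.0307% of all genes; at an unadjusted p under 0.05, 10 were lower and 0 higher, beside 4.47% and 4.3% of all genes. In 10 genes all KO soleus arrays were below all WT soleus arrays, beside 6.08% of all genes, and in 0 were they all above, beside 5.88%. These 10 were Fabp3, Lpl, Acads, Acadm, Etfa, Etfb, Etfdh, Echs1, Ehhadh and Ppara, and of them only Acads and Ppara were also separate, and lower, in KO TA.

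The dehydrogenases and their electron acceptors made up 5 of the 10. Acadm read 13.76, 14.05 and 13.87 in WT soleus and 13.46, 13.64 and 13.25 in KO soleus, a difference of -0.44 (SE 0.12, limma adjusted p = 0.273). Acads read 8.74, 9.23 and 9.58 in WT soleus and 8.28, 8.39 and 8.73 in KO soleus, a difference of -0.72 (SE 0.21, limma adjusted p = 0.315). In Acads the highest KO and the lowest WT array nearly touched, while in Acadm they were further apart.

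Etfa read 13.31, 13.44 and 12.85 in KO soleus, all below the WT soleus values given above, a difference of -0.51 (SE 0.16, limma adjusted p = 0.330). Etfdh, the membrane enzyme that passes these electrons to ubiquinone, read 12.01, 12.39 and 12.24 in WT soleus and 11.64, 11.94 and 11.50 in KO soleus, a difference of -0.52 (SE 0.15, limma adjusted p = 0.290). KO soleus replicate 3 was the lowest array of its group for Etfa, Etfdh and Acadm. All 3 electron transfer genes were thus lower in KO soleus and near level in TA.

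Echs1, the short-chain enoyl-CoA hydratase of the hydration step, had the smallest p in soleus. It read 11.46, 11.74 and 11.62 in WT soleus and 11.08, 11.19 and 10.81 in KO soleus, with no overlap, a difference of -0.58 (SE 0.14, limma adjusted p = 0.244). In TA its difference was -0.14. Lpl read 14.75, 14.86 and 14.74 in KO soleus and Fabp3 14.37, 14.66 and 14.45, each below all WT soleus arrays, with differences of -0.26 and -0.34. With arrays weighted by their fit to the model, Echs1, Acadm, Etfdh and Acads passed in soleus, where 2.77% of all genes then did.

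**Figure D3:**
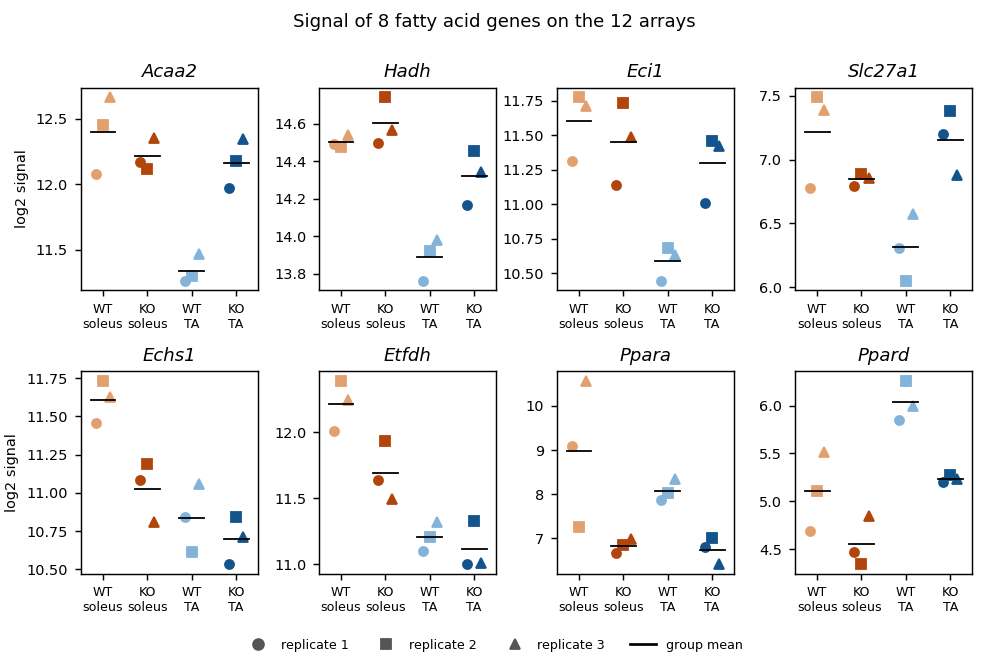
Log2 signal of 8 fatty acid genes on each of the 12 arrays, with symbols for the replicate number and bars for group means; each panel has its own axis. In the upper row KO TA is moved up from WT TA towards the soleus arrays, and in the lower row Echs1 and Etfdh are lower in KO soleus while Ppara and Ppard are lower in KO of both muscles, Ppard with overlap in soleus.

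The direction of the KO difference was set against itself in the 2 muscles, which share no arrays. The mean was higher in KO TA and lower in KO soleus for 16 of the 32 genes, beside 18.5% of all genes, and the reverse for 0, beside 21%. It was lower in KO of both muscles for 11, beside 30.4%, and higher in both for 5, Hadh, Hadhb, Eci2, Hsd17b4 and Acot2, beside 30.1%. In soleus a further probe set of Hadhb (-0.08), of Hsd17b4 (-0.13) and of Acot2 (-0.08, mean log2 3.6) was lower in KO instead. In 0 genes of the set were the groups separate in both muscles with KO higher in TA and lower in soleus, beside 0.169% of all genes. The 16 held 3 of the 4 uptake genes, both triglyceride lipases, and, among others, Slc25a20, Acadl, Acadvl, Hadha, Acaa2 and Eci1. These are signs of means, some of them near 0, as in soleus for Lipe (-0.09, SE 0.46) and Slc25a20 (-0.04, SE 0.18). Without WT soleus replicate 3, Pnpla2, Lipe, Slc25a20, Mlycd and Ucp3 turned positive in soleus. Without KO soleus replicate 1, Slc25a20, Eci1, Ucp3 and Ppargc1a did. Median centring turned 3 of the 11 positive in TA, Lpl, Cpt2 and Etfa.

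The difference between the 2 KO effects was tested as an interaction. The effect was higher in TA than in soleus for 31 of the 32 genes, Ppard (-0.25) being the exception, beside 48.5% of all genes, and the median was 0.49, against -0.01 over all genes. Limma passed 0 of the 32, beside 0.0384% of all genes; at an unadjusted p under 0.05, 11 were higher in TA and 0 lower, beside 2.59% and 3.11% of all genes. The smallest p was that of Acaa2, with a difference of effects of 1.01 (SE 0.22, adjusted p = 0.350), followed by Slc27a1 (1.22, SE 0.31, 0.502), Eci1 (0.86, SE 0.26, 0.625) and Acadl (0.73, SE 0.25, 0.743).

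The arrays behind these 4 show the TA and soleus sides of the difference to be unequal in size. Acaa2 in KO soleus read 12.17, 12.12 and 12.36, overlapping WT soleus. Slc27a1 read 6.77, 7.49 and 7.39 in WT soleus and 6.79, 6.89 and 6.86 in KO soleus, where WT replicate 1 lay below all KO arrays. Eci1 read 11.31, 11.78 and 11.71 in WT soleus and 11.14, 11.73 and 11.49 in KO soleus, and Acadl 13.68, 13.96 and 13.94 against 13.52, 13.70 and 13.72, both overlapping. For these 4 genes the TA difference (0.82, 0.84, 0.71 and 0.52) was larger in size than the soleus one (-0.19, -0.37, -0.15 and -0.21), which the arrays did not separate.

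Per array, the set's level can be given as the median over its genes of the deviation from each gene's own mean. It was 0.12, 0.42 and 0.62 in WT soleus, -0.03, 0.22 and 0.22 in KO soleus, -0.57, -0.44 and -0.20 in WT TA, and -0.38, 0.03 and 0.02 in KO TA. KO TA replicate 1 was below WT TA replicate 3, and WT soleus replicate 1 was below KO soleus replicates 2 and 3, so that the genotypes overlapped in both muscles while the muscles did not overlap in WT. Between arrays of equal number, KO was the higher in TA for 20, 26 and 17 genes of 32 at numbers 1, 2 and 3, with medians of 0.16, 0.52 and 0.05. In soleus it was the lower for 25, 24 and 28 genes, with medians of -0.20, -0.33 and -0.39. Without WT TA replicate 1 the TA median over the 32 genes was 0.11 rather than 0.32, and it was 0.16 without KO TA replicate 3 and 0.20 without WT TA replicate 2.

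**Figure D4:**
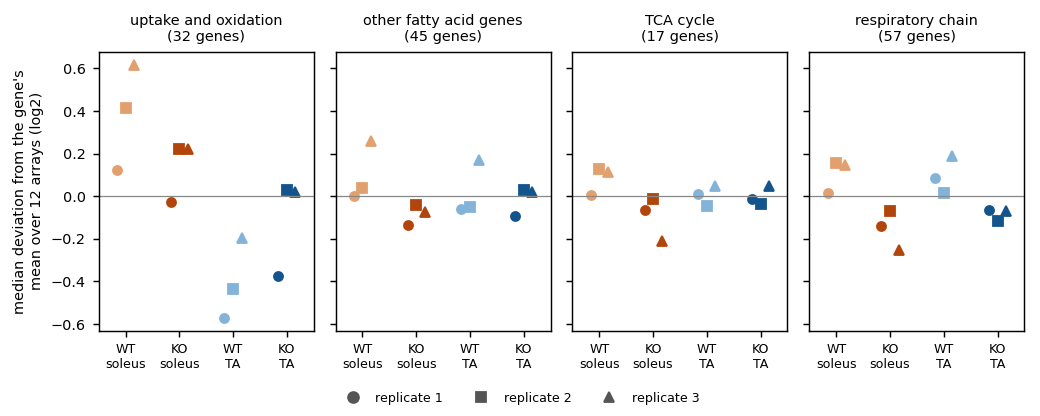
Median over the genes of each list of the deviation from the gene's mean over 12 arrays (log2), for each array; symbols give the replicate number. The 32 uptake and oxidation genes spread from -0.57 to 0.62, while the arrays of the TCA cycle and respiratory chain lists lie between -0.25 and 0.19.

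The transcriptional regulators had lower or level means in KO of both muscles. Ppara, the receptor that drives fatty acid oxidation genes in liver and muscle, read 7.87, 8.02 and 8.35 in WT TA and 6.80, 7.01 and 6.42 in KO TA, and 9.10, 7.25 and 10.57 in WT soleus and 6.66, 6.84 and 6.98 in KO soleus. The KO arrays were below all WT arrays in both muscles, and WT soleus spread over more than 3 log2 units. The differences were -1.34 (SE 0.63, limma adjusted p = 0.324) in TA and -2.14 (SE 0.63, limma adjusted p = 0.313) in soleus, with -0.79 and -0.30 in TA and -1.55 and -0.78 in soleus for its other probe sets. The soleus difference was -0.99 with array weights, -3.003 without WT soleus replicate 2, -1.34 without WT soleus replicate 3 and -1.42 without the arrays numbered 3, and the TA one -0.81 with the mean of probe sets. Ppara passed in neither muscle under any alternative run (limma adjusted p from 0.0813 to 0.676 in soleus and from 0.0815 to 0.556 in TA).

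Ppard, the family member that is most abundant in muscle, read 5.85, 6.26 and 6.00 in WT TA and 5.20, 5.27 and 5.24 in KO TA, with no overlap, a difference of -0.80 (SE 0.21, limma adjusted p = 0.0792). In soleus it read 4.69, 5.11 and 5.51 in WT and 4.47, 4.34 and 4.85 in KO, overlapping, a difference of -0.55 (0.478). It was the 1 gene of the set past the test as lower in WT soleus than in WT TA (-0.93, adjusted p = 0.0235), a call lost, with adjusted p up to 0.0951, under median centring, in a fit on the WT arrays alone, and without WT soleus replicate 1 or 2 or WT TA replicate 2 or 3. Ppargc1a, the coactivator of mitochondrial biogenesis, read 8.35, 8.75 and 7.74 in WT TA, 8.65, 8.91 and 7.41 in KO TA, 8.74, 8.48 and 9.44 in WT soleus and 8.04, 8.77 and 9.002 in KO soleus. Its groups overlapped throughout, with KO differences of 0.05 in TA and -0.28 in soleus that changed sign when single arrays were left out.

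A part of the set varied with the replicate number. The array numbered 3 was the highest of its group in all 4 groups for 11 of the 32 genes, beside 15.6% of all genes, and the lowest in all 4 for 0, beside 7.2%. This count does not rank number against genotype. For Acaa2, among these 11, array 3 exceeded the mean of its group's other arrays by 0.19 to 0.40. Its KO difference in TA was larger, at 0.82. Ucp3, a mitochondrial carrier that rises with fasting, Pnpla2 and Lipe, the triglyceride and diglyceride lipases of the fibre's own fat, and Mlycd, which removes the malonyl-CoA that blocks carnitine transfer, are given as examples chosen after their values were seen. Ucp3 read 6.67, 7.29 and 9.56 in WT soleus, 6.41, 8.18 and 8.50 in KO soleus, 8.01, 7.96 and 10.68 in WT TA and 8.15, 9.25 and 10.24 in KO TA. Lipe read 5.46, 5.52 and 6.44, then 5.55, 5.24 and 6.35, then 4.56, 4.94 and 5.79, and then 4.72, 5.53 and 6.09 in the same order of groups. Array 3 exceeded the mean of its group's other arrays by 0.95 to 1.04 for Lipe, 0.59 to 1.24 for Pnpla2, 0.63 to 1.15 for Mlycd and 1.20 to 2.69 for Ucp3. Their KO differences were smaller than this, from -0.32 to 0.41, with standard errors of 0.45 to 0.97. Between arrays of equal number Pnpla2 was higher in KO TA at all 3 numbers, by 0.56, 0.46 and 0.22, and lower in KO soleus at all 3, by -0.04, -0.61 and -0.26. Lipe was higher in KO TA at all 3 numbers, by 0.16, 0.59 and 0.31, and Mlycd lower in KO soleus at all 3, while Ucp3 differed in both directions in each muscle. With the number as a block the standard errors were 0.17 to 0.41, and none of the 4 passed in either muscle (limma adjusted p from 0.185 to 0.958). Without the arrays numbered 3, 24 of the 32 genes were higher in KO TA (median 0.39) and 25 lower in KO soleus (median -0.29), but 0 passed in TA, where 0.43% of all genes then did.

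**Figure D5:**
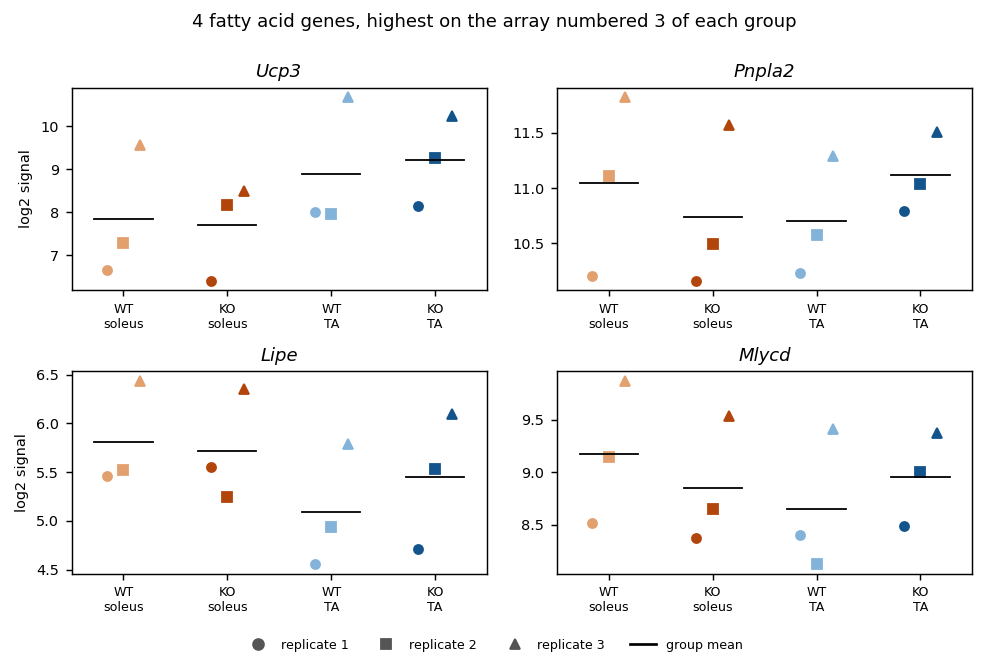
Log2 signal of Ucp3, Pnpla2, Lipe and Mlycd on the 12 arrays, with symbols for the replicate number and bars for group means; each panel has its own axis. In every group of every panel the triangle, array 3, is the highest point.

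The remaining measured genes can be given briefly. Cpt2, the inner carnitine palmitoyltransferase, and Crat, which makes short acylcarnitines, lay lower in KO soleus by 0.62 and 0.52 and differed by -0.07 and -0.10 in TA, the sign of Cpt2 turning under median centring. Ehhadh, the peroxisomal bifunctional enzyme, differed by -0.93 in soleus, with no overlap, and by -0.49 in TA, while Hsd17b4, the other peroxisomal bifunctional enzyme, differed by 0.14 and 0.46. Acot2, a mitochondrial acyl-CoA thioesterase, had the largest positive difference in both muscles, 0.98 in TA and 0.32 in soleus, with SDs up to 0.88 within groups. Hadhb differed by 0.47 in TA and 0.16 in soleus. None of these passed (limma adjusted p from 0.251 to 0.999).

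Other genes of fatty acid handling had smaller median differences. Of 50 listed, among them further transporters, synthetases, peroxisomal oxidases, thioesterases and lipid droplet proteins, 45 were measured. In TA 24 were higher and 21 lower in KO (median 0.05), in soleus 13 and 32 (median -0.18), and the KO effect was higher in TA for 31 of 45 (median 0.13). Dbi, which binds acyl-CoA in the cytosol, rose in KO TA, from 12.70, 12.66 and 12.55 to 13.10, 13.37 and 13.11 (0.55, limma adjusted p = 0.0144). It was the only 1 of the 45 to pass as higher, beside 1.42% of all genes. Hsd17b10, a mitochondrial dehydrogenase of branched and short substrates, fell, from 10.18, 10.24 and 10.60 to 9.56, 9.33 and 9.80 (-0.77, limma adjusted p = 0.0317), as did Acot13, a thioesterase, from 12.05, 12.24 and 12.02 to 11.59, 11.66 and 11.46 (-0.53, limma adjusted p = 0.0467), beside 1.41% of all genes that passed as lower. In soleus 0 of the 45 passed limma, beside 0.0307% of all genes, with 8 lower and 0 higher at an unadjusted p under 0.05, beside 4.47% and 4.3%, and the smallest p belonged to Acad9 (-0.47, adjusted p = 0.228), Acot13 (-0.49, 0.235) and Hsd17b10 (-0.58, 0.282).

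Respiratory chain genes, downstream of the pathway, lay lower in KO of both muscles. Of 57 measured respiratory chain subunits, 50 were lower in KO TA (median -0.20), and Ndufa2 (-0.62), Ndufa3 (-0.50), Cox5b (-0.36) and Ndufa13 (-0.34), named after their values were seen, passed limma as lower with adjusted p from 0.0350 to 0.0449, beside 1.41% of all genes. In KO soleus 50 were lower too (median -0.26), beside 48.9% of all genes, with 0 past limma, beside 0.0307%, and 30 lower at an unadjusted p under 0.05, beside 4.47%. The KO effect was higher in TA for 32 of these 57, with a median of 0.02, against 31 of 32 and 0.49 for the uptake and oxidation genes. Of 17 tricarboxylic acid cycle enzymes, 9 were higher in KO TA (median 0.02), all 17 were lower in KO soleus (median -0.19), and 16 had the higher effect in TA (median 0.27). Sdha, Sdhb, Sdhc and Sdhd are counted in both this list and the respiratory chain list. A difference between these lists was described by counts and medians only and not tested.

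Markers of fibre type and of other cells moved beside the set. Of 13 slow fibre genes, 12 were higher in KO TA, beside 48.6% of all genes, with a median of 1.12. Limma passed 0 of them, beside 1.42% of all genes as higher, and 5 were higher at an unadjusted p under 0.05, beside 7.95%. The log2 of their summed signal was 12.26 to 13.26 in WT TA and 13.29 to 13.92 in KO TA, against 18.44 to 18.67 over the soleus groups. WT TA replicate 3 was the lowest array for several of them, at 2.67 for Myh7 and 4.86 for Tnni1, the slow troponin I. In soleus 6 were higher and 7 lower in KO. Of 13 fast fibre genes, 11 were lower in KO TA (median -0.16) and 9 in KO soleus (median -0.15).

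Adipocyte markers were measured for 6 of 10 genes, and Plin1, Cfd, Lep and Ucp1 were not tested. The KO minus WT difference in TA was above 0 for each of these 6 (median 0.29), beside 48.6% of all genes. However, 2 of them stayed below log2 3.5 in TA, near the floor, so their signs carry little weight. Retn read 2.06 to 2.067 in WT TA and 2.065 to 2.116 in KO TA. Cidec read 3.024 to 3.348 in WT TA and 3.35 to 3.372 in KO TA. The summed log2 signal of the 6 was 13.44 to 14.08 in WT TA and 13.98 to 14.32 in KO TA. In soleus 4 were higher in KO (14.06 to 14.91 in WT, 14.34 to 14.97 in KO). Cidea, a lipid droplet protein, rose in KO TA, from 3.48, 3.66 and 3.79 to 4.68, 6.50 and 7.06 (2.44, limma adjusted p = 0.0356), whereas Adipoq, the adiponectin gene, read 6.00, 6.36 and 2.59 in WT TA and 7.45, 6.36 and 5.81 in KO TA (adjusted p = 0.508). Adipoq was higher in WT soleus than in WT TA by 4.61, and Cd36, Lpl, Pnpla2 and Lipe are also expressed by adipocytes. Endothelial cells also carry Cd36. Of 9 endothelial markers, 8 were higher in KO TA (median 0.15), all 9 lower in KO soleus (median -0.30), and all 9 had the higher KO effect in TA (median 0.46). Limma passed 0 in each case, beside 2.83%, 0.0307% and 0.0384% of all genes. At an unadjusted p under 0.05, 0, 1 and 1 passed in these directions, beside 7.95%, 4.47% and 2.59%. The summed log2 signal of the 9 markers was 11.55 to 11.79 in WT TA, 11.73 to 11.89 in KO TA, 11.89 to 12.23 in WT soleus and 11.52 to 12.01 in KO soleus. Markers of other cells moved as well, where 48.6% of all genes were higher in KO TA and 48.9% lower in KO soleus. Of 8 fibroblast markers, 8 were higher in KO TA (median 0.24) and 5 in KO soleus (median 0.06). Of 7 smooth muscle markers, 6 were lower in KO of each muscle (median -0.19 in TA and -0.26 in soleus). Of 5 myeloid markers, 4 were higher in KO TA (median 0.20) and 5 in KO soleus (median 0.17). In KO of each muscle 2 of 2 erythroid markers were lower and 2 of 3 Schwann cell markers higher. Limma passed 0 of the markers of these other cells, beside 2.83% of all genes in TA and 0.0307% in soleus. The part of fibre type, adipocytes, endothelium and these other cells in the differences of the fatty acid genes was not tested.

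Where a gene had further probe sets they mostly pointed the same way. Beside the brightest, 27 other probe sets of 18 of the genes passed the filter, 22 of them with a mean log2 above 5. Of these 22, 18 had the sign of the brightest in KO against WT in TA and 19 in soleus. In Cd36 a probe set differed by -0.13 in TA where the brightest differed by 0.37. The further probe set of Lpl differed by 0.15 in TA, against -0.05 for the brightest. Those of Ppargc1a differed by 0.33, 0.43, -0.11 and -0.08 in TA, against 0.05 for the brightest.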

How the data were processed

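Total RNA of soleus and TA was labelled and hybridised to 12 single-colour Affymetrix arrays, per the labels' protocols. The authors deposited log2 signals for 45101 probe sets an array, from 0.89 to 16.36. MAS5 is named, with neither version nor role, in the submitters' processing notes, so how probes were summarised stays unknown. Here the values were quantile normalized. A probe set was kept if it exceeded the 40th percentile of an array (log2 2.76) in 3 or more of them, and the brightest with a single symbol stood for its gene (34945 probe sets had 1 symbol, 932 several, 9160 none and 64 were controls). Groups came from the sample titles. Genes were tested with limma 3.58.1 in R 4.3.3, by lmFit on 4 group means over 12 arrays and eBayes with a variance trend, 2-sided, with adjustment over 13009 genes in each of 5 comparisons and a threshold of 0.05. The code was tested on simulated data. With 3 arrays against 3 an exact permutation test cannot go below p = 0.1, so none is given. The comparisons of soleus with TA share arrays with those of KO with WT.

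The genes and lists were chosen with earlier results of these data known, so no list is tested as a whole. Values of every array are given for genes past the test in KO against WT or in the difference of effects, the 6 of smallest p in each muscle, the 4 of smallest p in the difference, the 6 highest and lowest of those past the test in WT soleus against WT TA (Ppard was the 1 lower), and Ppara, Ppard and Ppargc1a. Of the other fatty acid genes, those past the test in KO against WT are named, or the 3 of smallest p.

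Pairing by replicate number was checked by the correlation of deviations from group means. It was 0.345, 0.158 and 0.557 for numbers 1, 2 and 3 between KO and WT TA, 0.489, 0.433 and 0.590 between the KO muscles and 0.351, 0.141 and 0.594 between the WT muscles, above the limit of 0.1 throughout. Between KO and WT soleus it was 0.427, 0.091 and 0.611. The pairing comes from these values and not from the labels, and KO soleus and WT TA, which cannot share a mouse, passed too (0.281, 0.262 and 0.471). WT soleus and KO TA, which cannot share a mouse either, gave 0.282, 0.036 and 0.437, with number 2 below the limit. Unequal numbers 1 and 2 correlated too. WT soleus 1 with WT TA 2 gave 0.347, KO TA 1 with WT TA 2 gave 0.236, and KO soleus 1 with WT soleus 2 gave 0.271. Between the KO muscles such pairs gave -0.02 and 0.097. Number 3 with 1 or 2 was negative throughout. The deviations of a group's 3 arrays sum to 0, so these negative values follow in part from the centring. Outside the KO muscles, number 3 with number 3 gave the highest values, and unequal numbers 1 and 2 correlated too. The values there thus set number 3 apart more than they pair equal numbers.

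Alternatives were the table as deposited, median centring, no filter, a filter on mean log2 above 5, no variance trend, robust variances, array weights, an offset of 32, the mean of a gene's probe sets, only the arrays compared, the replicate block, and leaving out each array or the arrays numbered 3. Promoter windows were RefSeq sequences on GRCm38.p6, matched by symbol.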

Additional observations from a re-analysis of the deposited data

How the results depend on the processing

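The count of fatty acid genes past the test in KO against WT in TA, 2, was 4 with median centring and with a filter on mean log2 above 5, 1 without a filter and with the mean of probe sets, and 0 with only the arrays compared or without the arrays numbered 3. Leaving out single arrays gave 0 to 5, and the TA median of 0.32 ranged from 0.11 to 0.49. In soleus array weights gave 4 in place of 0. For WT soleus against WT TA the count of 19 ranged from 12 to 19 without single arrays. For KO soleus against KO TA the count of 6 was 3 without a filter, with the mean of probe sets and without the arrays numbered 3, 1 with only the arrays compared, and 2 to 5 without single arrays. The count of genes with the higher KO effect in TA, an alternative view added after seeing the data, was 30 or 31 under each setting. Ppargc1a reversed in TA with array weights (-0.020) and without single arrays, with a range of -0.25 to 0.50, and in soleus without KO soleus replicate 1, with a range of -0.48 to 0.0023. Of the other values of single genes, 540 kept direction and side of the threshold, 56 lost and 13 gained a call. The cause of these changes was not tested, beyond the fewer arrays or genes that a setting leaves.

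With the replicate block the counts were 8 in TA, 10 in KO soleus against KO TA, 22 in WT soleus against WT TA, and 0 in soleus and in the difference of effects; in WT soleus against WT TA it added Lipe, Cpt2 and Hadhb, and it ended 0 calls of the 32 genes. Over all genes, KO against WT in TA gave 368 calls, 911 with the block, 4 with only the arrays compared, 56 without the arrays numbered 3 and 85 to 398 without single arrays. KO against WT in soleus gave 4, 360 with array weights, 3 to 30 without single arrays and 0 to 5 otherwise, and the difference of effects gave 5, and 1 to 20 over all settings. WT soleus against WT TA gave 1393, 2370 with the block, 2806 with array weights, 707 with only the arrays compared and 700 to 1282 without single arrays. KO soleus against KO TA gave 1165, 2194 with the block, 631 with only the arrays compared and 585 to 1072 without single arrays. Signals below log2 3.5 lie near the floor of the table and limit values there.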
